A study of Mus musculus with 9 samples.

Results

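The presynaptic active zone scaffold genes comprised 7 genes, Pclo, Bsn, Rims1, Rims2, Unc13a, Erc1 and Erc2, taken by symbol from the 53465 genes listed in the count and FPKM tables. All 7 were among the 18501 genes with enough counts to be tested. They were selected on earlier results of the same libraries, in which low levels of several of them in DNP versus CON were already known, so the DNP versus CON values are given as a description with no test of the members. As these are long transcripts, their values are also set beside those of other genes of similar length.

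Whole-brain RNA was sequenced from male C57BL/6 mice that were 7 weeks old at the start, with 3 mice and 3 libraries in each group. CON mice were kept on standard chow and received saline. DNP mice, the diabetic neuropathic pain model, ate a diet with 60% fat for 4 weeks, were injected with streptozotocin, which destroys insulin-producing beta cells, at 50 mg/kg a day for 7 days, and were given saline. BAC mice went through the same diet and streptozotocin and were then injected with baclofen (a drug that activates GABA-B receptors) at 8 mg/kg a day for 7 days. Diet, streptozotocin and diabetes are present together in both diabetic groups, and no group received baclofen without them, so the agents cannot be told apart. Only mice with high fasting glucose and lowered pain thresholds entered the diabetic groups.

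At a chemical synapse, vesicles fuse with the presynaptic membrane at the active zone, a dense protein scaffold facing the postsynaptic receptors. Piccolo and Bassoon are giant proteins that span this zone, RIM proteins tie vesicles and calcium channels to it, Munc13 proteins prime vesicles for fusion, and ELKS proteins link the components to each other. Neurons throughout the brain use this machinery, but regions differ in which paralogs they favour.

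In DNP brains all 7 genes had lower mean levels than in CON brains, from 2.45-fold lower for Erc1 to 1.16-fold lower for Erc2. Pclo, Bsn, Rims1, Rims2 and Erc1 were lower in each DNP library than in each CON library, whereas the ranges of Unc13a and Erc2 overlapped. In BAC brains Pclo lay above each DNP library, Bsn and Rims1 had means close to those of DNP, and Unc13a and Erc2 had their lowest group means. None of these differences passed the adjusted threshold of 0.05 in edgeR's quasi-likelihood test.

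The 7 genes together took 0.259%, 0.212% and 0.252% of all counts in CON 1, 2 and 3. The shares were 0.108%, 0.155% and 0.159% in DNP 1, 2 and 3, and 0.151%, 0.168% and 0.108% in BAC 1, 2 and 3. Thus the 3 CON libraries had the highest shares and the diabetic groups overlapped each other. In bulk tissue, fewer cells of a type and less RNA per cell cannot be told apart.

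Totals ranged from 13107382 to 16008129 counts per library, so that even the rarest member, Erc1, had at least 463 counts in each library and counting error was small beside the spread between mice. Libraries of a group differed by 14.3 to 110 times what counting error gives (chi-square over its degrees of freedom). The libraries differed in the brain regions they held. Gabra6, a receptor subunit of cerebellar granule cells, had 4828 counts in CON 2, 2808 in BAC 1 and none in DNP 2, DNP 3 and BAC 2. Hoxa5, a gene of the hindbrain and spinal cord, had 182 counts in DNP 1, 749 in BAC 1 and 887 in BAC 3, and none in the other libraries. The mean level of 8 forebrain genes was above the average over the 9 libraries in CON 1, CON 3, DNP 2, DNP 3 and BAC 2, and below it in the other 4. These 4 libraries, CON 2, DNP 1, BAC 1 and BAC 3, thus differed from the other 5 by the forebrain list, although each is labelled whole brain. Neither set was uniform by the other markers. Gabra6 had 954 counts in BAC 3, 735 in CON 3, 432 in DNP 1 and 42 in CON 1. Hoxa5 was absent from CON 2 but present in DNP 1, BAC 1 and BAC 3.

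Of the giant scaffolds, Pclo (Piccolo) lies on chromosome 5 of GRCm38 at 14514918 to 14863459, and its longest coding transcript has 25 exons and 20084 bases. Bsn (Bassoon) lies on chromosome 9 at 108096022 to 108190384, with 12 exons and 15938 bases. Of the ELKS genes, Erc1 lies on chromosome 6 at 119570796 to 119848167 and Erc2 on chromosome 14 at 27622428 to 28478537. Rims1 is on chromosome 1 at 22286251 to 22805994, Rims2 on chromosome 15 at 39198261 to 39684372 and Unc13a on chromosome 8 at 71624417 to 71671757. The libraries carried no strand information, and Colgalt1, a protein-coding neighbour on the other strand with a mean of 708 counts, shares 495 exon bases with Unc13a (3.92% of its exons). The other overlapping annotated genes had mean counts of at most 4.44, and the largest overlap was 11.8% of the exons of Erc1.

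Because several members were low together, the 250 bases before their annotated starts are shown for both pairs of homologous scaffolds, the pair Pclo and Bsn and the pair Erc1 and Erc2, as given by RefSeq for GRCm38.p6, 5′ to 3′ on the strand of the gene. Capitals mark a GC box (GGGCGG or its complement), and the windows are chr5:14514668-14514917 (plus strand), chr9:108190384-108190633 (minus), chr6:119848151-119848400 (minus) and chr14:27622157-27622406 (plus).
Pclo: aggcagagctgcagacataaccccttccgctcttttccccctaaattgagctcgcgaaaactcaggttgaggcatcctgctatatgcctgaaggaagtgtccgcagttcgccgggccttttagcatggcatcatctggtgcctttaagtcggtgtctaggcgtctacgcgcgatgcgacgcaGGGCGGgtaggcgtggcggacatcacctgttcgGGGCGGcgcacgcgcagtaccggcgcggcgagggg
Bsn: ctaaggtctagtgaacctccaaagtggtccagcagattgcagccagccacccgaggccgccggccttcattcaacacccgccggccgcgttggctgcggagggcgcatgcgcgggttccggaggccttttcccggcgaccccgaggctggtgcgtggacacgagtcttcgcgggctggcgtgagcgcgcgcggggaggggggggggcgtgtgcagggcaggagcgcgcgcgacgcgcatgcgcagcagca
Erc1: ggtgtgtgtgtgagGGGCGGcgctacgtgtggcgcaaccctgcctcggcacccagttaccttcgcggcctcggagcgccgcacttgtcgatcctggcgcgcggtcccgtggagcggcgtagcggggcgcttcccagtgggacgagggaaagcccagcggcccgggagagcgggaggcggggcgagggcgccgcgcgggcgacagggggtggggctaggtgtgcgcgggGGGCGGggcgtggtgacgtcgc
Erc2: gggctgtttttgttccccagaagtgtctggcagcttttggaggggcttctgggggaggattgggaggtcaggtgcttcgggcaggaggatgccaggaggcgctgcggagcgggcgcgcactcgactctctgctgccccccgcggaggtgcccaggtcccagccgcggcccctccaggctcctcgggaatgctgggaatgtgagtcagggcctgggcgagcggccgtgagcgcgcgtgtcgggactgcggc
Windows for 6 of the 7 members were matched in the table. A GC box was found in Pclo, Rims1, Unc13a and Erc1 (2 copies each) and in 32.7% of the 32851 windows of all genes. No GC box was found in the windows of Bsn and Erc2. The search covered both strands. The E-box CACGTG, present in 6.02% of all windows, was found in none of the 6 member windows. The same held for the cyclic AMP response element TGACGTCA, present in 1.55% of all windows. The TATA box, searched as TATAAA and present in 12.4% of all windows, was likewise found in none of the 6. The member windows were rich in CpG, with 18 to 36 CpG dinucleotides against a median of 6 over all windows, and with a GC content of 58.0% to 76.0% against a median of 52.4%.

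Pclo counts, scaled by TMM as counts per 1e6 counts (CPM), were 322, 375 and 351 in CON 1, 2 and 3. They were 181, 147 and 144 in DNP and 328, 196 and 213 in BAC, in the same order. Each DNP library was below each CON library and each BAC library. Against CON, Pclo was 2.21-fold lower in DNP (log2 fold change -1.15, SE 0.22).

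Bsn had 1038, 767 and 956 CPM in CON, 345, 463 and 471 in DNP and 466, 576 and 307 in BAC. The CON libraries stood apart from all 6 libraries of diabetic mice. The DNP level was 2.16-fold lower than that of CON (log2 fold change -1.11, SE 0.25).

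**Figure D1:**
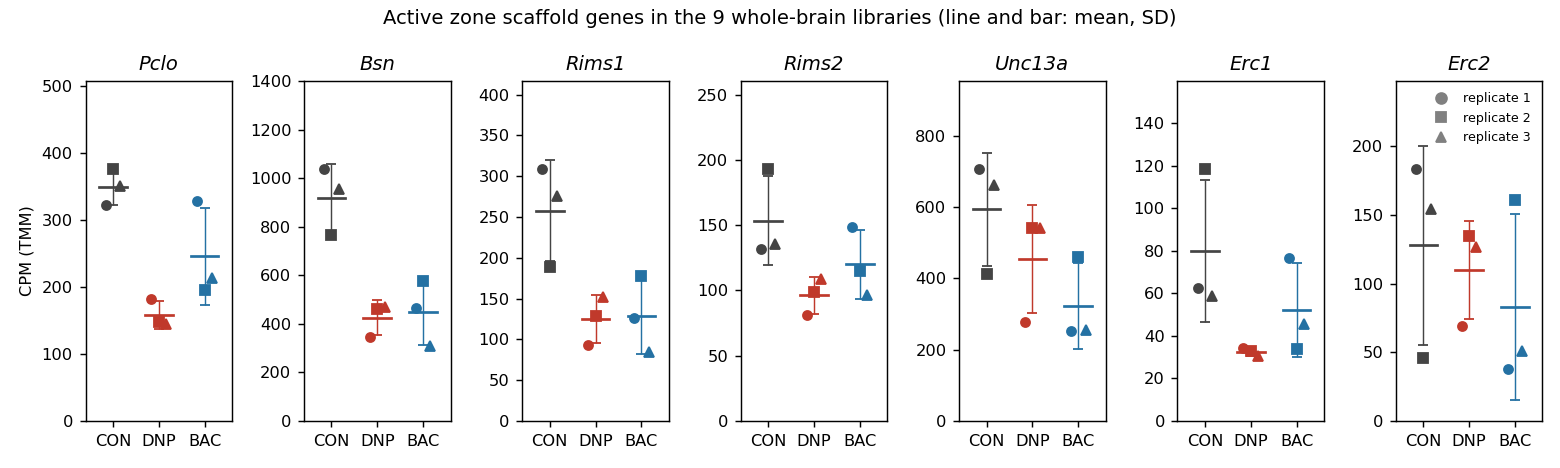
CPM (TMM, linear axis from 0) of each gene in the 3 CON, 3 DNP and 3 BAC libraries, with 1 symbol per library and a line with a bar for the group mean and SD (n = 3). The CON points of Pclo, Bsn, Rims1, Rims2 and Erc1 lie above the DNP points, whereas Unc13a and Erc2 overlap.

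Rims1, which encodes the main RIM protein of central synapses, had 309, 189 and 276 CPM in CON, 93.3, 128 and 152 in DNP and 126, 178 and 84.0 in BAC. The DNP and BAC ranges overlapped each other and neither reached the lowest CON library. Its DNP level was 2.07-fold lower than that of CON (log2 fold change -1.05, SE 0.31). Rims2, its paralog, had 132, 193 and 136 CPM in CON, 81.0, 98.8 and 109 in DNP and 149, 115 and 96.7 in BAC. CON 2 stood above the other libraries, and the DNP and CON ranges did not meet (1.60-fold lower in DNP, log2 fold change -0.67, SE 0.22).

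Unc13a, which encodes the priming factor Munc13-1, had 706, 411 and 662 CPM in CON, 279, 542 and 542 in DNP and 253, 460 and 254 in BAC. CON 2 fell below DNP 2 and DNP 3, so the groups overlapped (log2 fold change of DNP versus CON -0.38, SE 0.35).

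Erc1, the ELKS gene that is also used outside the nervous system, had 62.5, 118 and 58.9 CPM in CON, 34.2, 33.1 and 30.4 in DNP and 76.6, 34.0 and 45.6 in BAC. The 3 DNP libraries were close to each other (32.6 ± 1.94 CPM, SD, n = 3), and 2.45-fold below CON (log2 fold change -1.30, SE 0.35). Erc2, the ELKS gene of neurons, had 183, 45.8 and 154 CPM in CON, 69.0, 135 and 126 in DNP and 37.5, 161 and 50.6 in BAC. The CON mean was 128 ± 72.5 CPM (SD, n = 3), with CON 2 far below the other two. On the log2 scale this spread was the widest of the members within CON (SD 1.09), and the difference of DNP from CON was smaller than its error (log2 fold change -0.22, SE 0.64).

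Over all 18501 tested genes, edgeR called none in DNP versus CON (0%), with a smallest adjusted p of 0.294. At an unadjusted p under 0.05, 1011 genes were lower in DNP (5.46%), 5 of the 7 members among them. Groups without overlap and lower in DNP were seen for 8.63% of genes and for those same 5 members, Pclo, Bsn, Rims1, Rims2 and Erc1. DESeq2 called 1.05% of genes lower in DNP, and of the members Pclo, Bsn and Erc1. Since the members were chosen by this comparison, these counts describe the choice and carry no further weight. The median log2 fold change was -1.05 over the 7 members and 0.01 over all tested genes. With the mean levels of the cerebellum and Hox lists as covariates, the log2 fold change moved to -0.10 for Rims2, -0.54 for Erc1, -0.82 for Unc13a and -1.27 for Erc2, while Pclo gave -0.96, Bsn -1.21 and Rims1 -1.33.

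BAC versus DNP addressed whether the diabetic level differed after baclofen. It shares the DNP libraries with the comparison above, by which the members were chosen. Its values for the members are therefore not independent of that choice. Pclo was higher in BAC than in DNP by a log2 fold change of 0.64 (SE 0.21, 95% interval 0.15 to 1.13), with each BAC library above each DNP library, but its adjusted p was 0.998 in edgeR. Over all genes, 0% passed the adjusted threshold, 1.37% were higher at an unadjusted p under 0.05 and 3.38% were higher without overlap, and Pclo was the 1 member in each of the last 2 counts. Erc1 gave a log2 difference of 0.68 (SE 0.35) with overlapping groups, since BAC 2 lay within the DNP range. DESeq2 called 0.0217% of genes higher in BAC and none of the members.

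The remaining members gave values on both sides of 0 in BAC versus DNP. The log2 fold change was 0.08 for Bsn (95% interval -0.49 to 0.65), 0.05 for Rims1 (-0.66 to 0.76) and 0.32 for Rims2 (-0.19 to 0.82). For Unc13a it was -0.50 (-1.30 to 0.31), and for Erc2 -0.41 (-1.87 to 1.05). All of these intervals contain 0. The interval of Rims2 also contains a difference as large as its 0.67 between CON and DNP, whereas those of Bsn and Rims1 end below 1.11 and 1.05, the sizes of theirs. These sizes are themselves uncertain, with DNP versus CON intervals of -1.69 to -0.53 for Bsn and -1.76 to -0.33 for Rims1. The intervals therefore do not decide how far either gene returned toward CON. The adjusted p of each member was 0.998 in edgeR.

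BAC versus CON uses the libraries of both comparisons above. All 7 members had lower means in BAC, with log2 fold changes of -1.03 for Bsn (SE 0.25), -0.996 for Rims1 (SE 0.31), -0.88 for Unc13a (SE 0.36), -0.62 for Erc1 and Erc2 (SE 0.35 and 0.64), -0.51 for Pclo (SE 0.21) and -0.36 for Rims2 (SE 0.22). Bsn and Rims1 were lower in each BAC library than in each CON library, a pattern found in 6.23% of all genes. In edgeR no gene passed (0%) and the adjusted p of the members was 0.628 to 0.839. Unadjusted p values under 0.05 with a lower level in BAC were found for 4 members, Bsn, Rims1, Unc13a and Pclo, and for 3.30% of genes. DESeq2 called 0.199% of genes lower in BAC, with Bsn (adjusted p = 0.0373) as the 1 member. The members were chosen with the same CON libraries in view, so these BAC versus CON counts also carry no further weight.

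**Figure D2:**
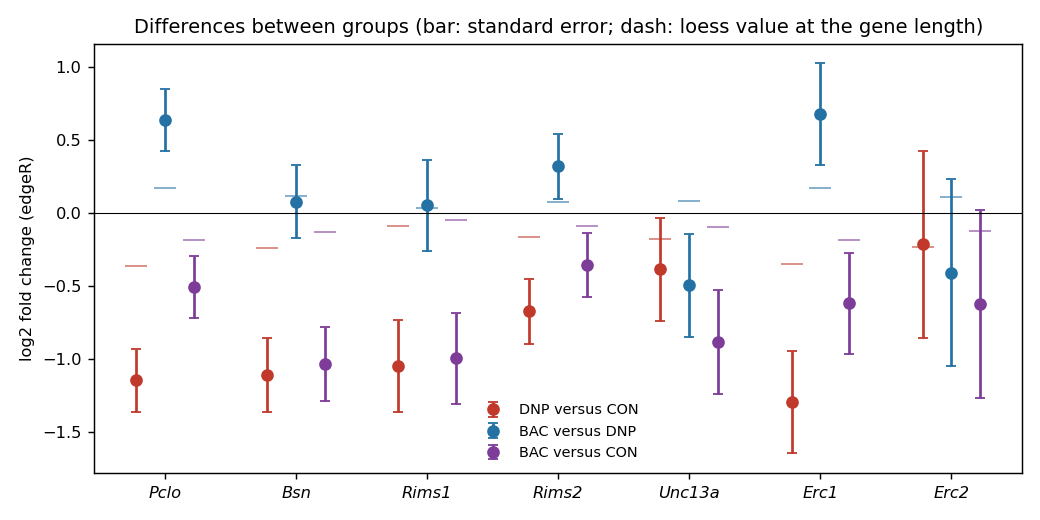
Log2 fold change of each gene by edgeR in the 3 comparisons, with the standard error as a bar, and as a short dash the value that a loess curve over all tested genes gives at the length of that gene. Pclo and Erc1 lie near -1.15 and -1.30 in DNP versus CON and at 0.64 and 0.68 in BAC versus DNP, while Bsn and Rims1 stay near -1 against CON in both diabetic groups.

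The length of each gene was derived from the files, as the count divided by the FPKM and the library total. It was the same in all libraries to within a ratio of 1.00009. The lengths obtained were 34983 bases for Pclo, 33296 for Erc1, 20165 for Bsn, 19134 for Erc2, 15097 for Unc13a, 14583 for Rims2 and 10349 for Rims1, which places them between the percentiles 81.8 and 99.7 of the tested genes. These values are longer than any single transcript. For 90.4% of the 18454 genes with a GENCODE M21 model, the length equalled the sum of all distinct annotated exons to within 0.1%, so that bases shared by alternative exons were counted more than once. Only 22.2% of genes matched the union of exons and 22.5% the longest transcript.

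This denominator weighs unevenly on the members, since they differ in how many overlapping exons are annotated. The length behind the FPKM exceeded the union of exons 2.05-fold for Erc1 and 1.97-fold for Erc2, but 1.20-fold for Unc13a and 1.27-fold for Bsn. Erc1 thus had a mean of 2.36 FPKM in CON (SD 1.07) and 4.91 CPM per kilobase of exon union (SD 2.05).

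On the scale of CPM per kilobase of exon union, the CON levels were 57.8 ± 8.72 for Bsn, 47.0 ± 12.6 for Unc13a, 35.0 ± 8.42 for Rims1, 15.6 ± 1.19 for Pclo, 14.8 ± 3.29 for Rims2, 13.1 ± 7.45 for Erc2 and 4.91 ± 2.05 for Erc1 (SD, n = 3). Neighbours in this order overlapped between libraries, except Rims1 and Pclo, whose CON libraries lay at 25.6 to 41.9 and at 14.3 to 16.7. By FPKM, Rims2 (10.3 ± 2.67) had a higher CON mean than Pclo (9.75 ± 1.09), and by the longest coding transcript Rims2 reached 32.0 CPM per kilobase against 17.4 for Pclo. The order of these genes therefore depends on the length used, whereas fold changes of a gene between groups do not.

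Long genes as a whole were lower in DNP. Over the 3368 tested genes of at least 10349 bases, members left out, the median log2 fold change of DNP versus CON was -0.16, against 0.01 over all genes. Of these long genes, 2334 had lower levels in DNP and 593 were lower without overlap. At an unadjusted p under 0.05 in edgeR 417 were lower, and DESeq2 called 99 lower. In 10 bins of equal gene number by length, the median fell from 0.17 in the shortest bin to -0.21 in the longest, in which 74.6% of genes were lower. In BAC versus DNP the slope ran the other way, from -0.07 to 0.09, and in BAC versus CON from 0.11 to -0.14. Genes of at least the shortest member length took 31.3% to 33.2% of counts in CON, 27.4% to 28.1% in DNP and 27.7% to 30.9% in BAC.

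Since the members were chosen by DNP versus CON, their distance from this slope in that comparison follows in part from the choice and is given as a description. After subtraction of the loess value at each length, the DNP versus CON difference was -0.96 for Rims1, -0.94 for Erc1, -0.87 for Bsn, -0.78 for Pclo and -0.51 for Rims2 on the log2 scale. Unc13a kept -0.21 and Erc2 0.02, close to genes of their length. Among the 3368 long genes, 1.60% had a lower value than Erc1, 2.35% than Pclo, 2.49% than Bsn and 2.82% than Rims1, compared with 43.0% for Erc2. In BAC versus DNP, 0.46 of the 0.64 of Pclo and 0.51 of the 0.68 of Erc1 remained after subtraction.

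**Figure D3:**
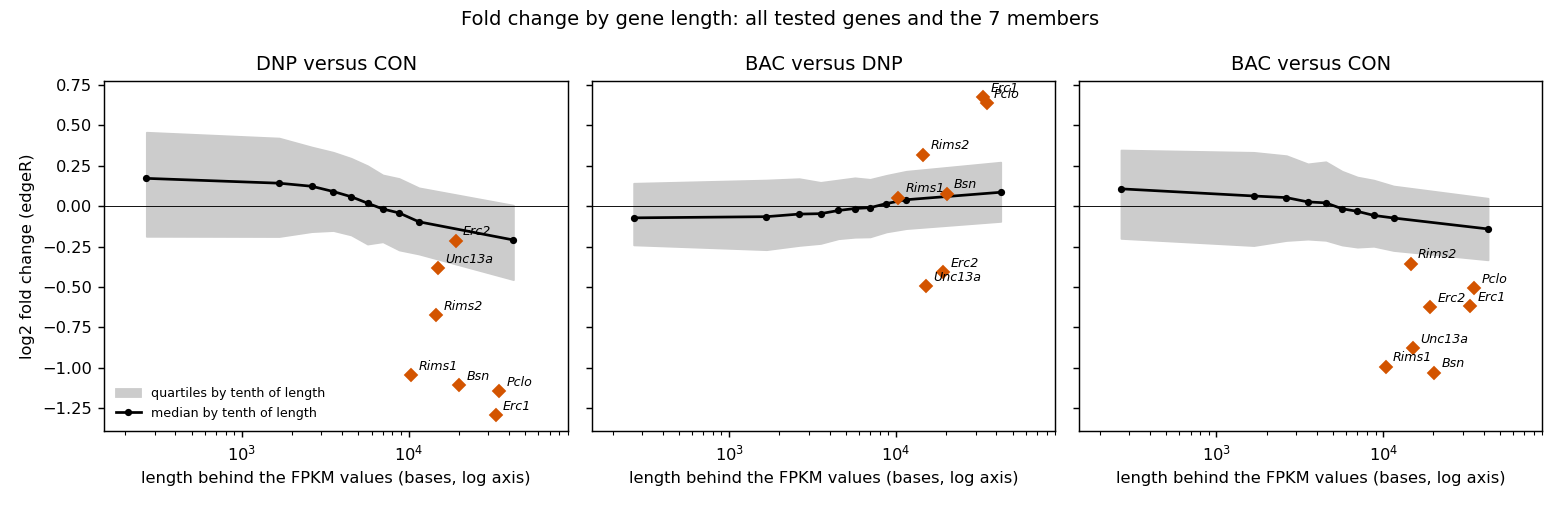
Log2 fold change against the length behind the FPKM values (bases, log axis) in the 3 comparisons. The line and band give the median and quartiles of the tested genes in 10 bins of length and the diamonds the 7 members. In DNP versus CON the line falls from 0.17 to -0.21 and 5 members lie at -0.67 or lower, below the band, with Unc13a at its edge.

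Long genes from outside the synaptic lists served as a side list of 16 genes, including Dync1h1 (the dynein heavy chain) and Lrp1 (an endocytic receptor). Whether they also act at the synapse was not examined. All 16 had lower means in DNP than in CON and 8 did so without overlap, with a median log2 fold change of -0.41, or -0.12 after subtraction of the loess value. Among all 3368 long genes, 2334 were lower and 593 were so without overlap. Lrp1 was the lowest, with 1025, 1192 and 1046 CPM in CON and 693, 610 and 561 in DNP (log2 fold change -0.81, SE 0.17). Dync1h1, the most abundant, gave -0.42 (SE 0.19). All 16 had higher means in BAC than in DNP, with a median of 0.25.

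Other genes of the release site were less uniform. Of 28 partners of the scaffold, 21 had lower and 7 higher means in DNP, with a median of -0.17, and 4 were lower without overlap. These 4 were Cacna1a and Cacnb4, subunits of presynaptic calcium channels, and Rims3 and Rims4, the short RIM paralogs. The same pattern was found in 8.63% of all tested genes and in 593 of the 3368 long genes. Cacna1a had 337, 791 and 373 CPM in CON and 223, 193 and 225 in DNP (log2 fold change -1.23, SE 0.40), with its highest value in CON 2, the library richest in cerebellar transcripts. At the other end, Pfn2, a profilin, gave 0.41 (SE 0.26), and Dynll2, a dynein light chain and the most abundant of the list, gave 0.05 (SE 0.30).

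The vesicle and fusion genes showed no common direction, with 9 of 17 lower in DNP and a median of -0.03. Snap25, the SNARE protein of the plasma membrane, was at 2315, 1976 and 2271 CPM in CON and 2620, 2177 and 2826 in DNP (log2 fold change 0.22, SE 0.17). Slc17a7, the vesicular glutamate transporter of cortical neurons, gave -0.57 (SE 0.60), and Vamp1, a vesicle SNARE abundant in the brainstem, gave 1.39 (SE 0.92) with 1077 CPM in DNP 1 and 84.6 in DNP 2. Both of the latter had ranges that overlapped between groups.

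Across the synaptic cleft, all 13 identifiers of 12 postsynaptic scaffold genes had lower means in DNP, with a median of -0.52, or -0.35 after subtraction of the loess value. They were Shank2 at the low end (-0.98, SE 0.31) and Dlgap4 at the high end (-0.08, SE 0.40), with the abundant Dlg4, which encodes PSD-95, at -0.10 (SE 0.42). Groups did not overlap for 4 of the 13, a pattern found in 8.63% of all genes and in 593 of the 3368 long genes. No gene of these 4 lists passed the adjusted threshold in edgeR, where 8 long non-synaptic genes, 4 release-site partners, 3 postsynaptic genes and 0 vesicle genes were lower at an unadjusted p under 0.05. DESeq2 called 3 of the long non-synaptic genes and 3 of the partners lower, and none of the other 2 lists. Over all tested genes the shares were 5.46% at an unadjusted p under 0.05 in edgeR and 1.05% by DESeq2. Among all 3368 long genes the counts were 417 and 99.

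Within the groups, the members followed more than 1 pattern. Over the 9 libraries the log2 CPM of Bsn and Rims1 correlated with r = 0.98, and Unc13a and Erc2 with r = 0.87. Pclo correlated most with Erc1 (r = 0.92), and Rims2 with Erc1 (r = 0.89). Erc1 and Erc2 ran in opposite directions, with r = -0.49 over the 9 libraries and -0.90 after group means were removed. These coefficients are descriptions over 9 libraries that share their groups and their mix of regions. Among the 18494 other tested genes, those whose log2 CPM over the 9 libraries was most like the mean of the members were D430041D05Rik (r = 0.99), Med13l, a Mediator subunit (0.98), Slc17a5, a lysosomal sialic acid transporter (0.98), Cdc42bpb, a kinase (0.98), and Foxk1, a forkhead factor (0.97). Of these genes, D430041D05Rik had the lowest log2 fold change in DNP versus CON, at -1.12. Group differences were left in for this ranking and the members were chosen for low DNP levels, so low values follow in part from it. A coefficient over 0.9 was found for 110 of the 18494 genes.

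Several marker lists moved with these patterns. Erc2 and Unc13a had r = 0.94 and 0.95 with the mean level of the forebrain list. Pclo and Erc1 had r = 0.72 and 0.78 with that of the cerebellum list, and 0.92 and 0.87 with that of the side list of long genes described above. For Bsn and Rims1 the strongest of these coefficients were negative, -0.85 and -0.81 with the oligodendrocyte list. With group means removed these were -0.65 and -0.56, and the strongest were 0.85 and 0.91 with the forebrain list. Rims2 reached 0.61 with the long genes. After group means were removed it had only 0.10 with them, and 0.19, -0.15 and -0.14 with the cerebellum, forebrain and Hox lists. With group means removed, the coefficient with the long genes was 0.88 for Pclo and 0.70 for Erc1. It was negative for Bsn (-0.63), Rims1 (-0.71), Unc13a (-0.92) and Erc2 (-0.84). The 10 cerebellar genes summed to 142 to 6087 CPM in CON, 133 to 710 in DNP and 83.5 to 3111 in BAC, with up to 2 of the 10 at 0 in a DNP library. The 8 forebrain genes summed to 295 to 751 CPM in CON, 137 to 599 in DNP and 79.6 to 526 in BAC, and none was at 0. The 10 Hox genes summed to at most 0.356 CPM in CON, where 8 to 10 were at 0, but reached 56.4 in DNP and 261 in BAC.

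**Figure D4:**
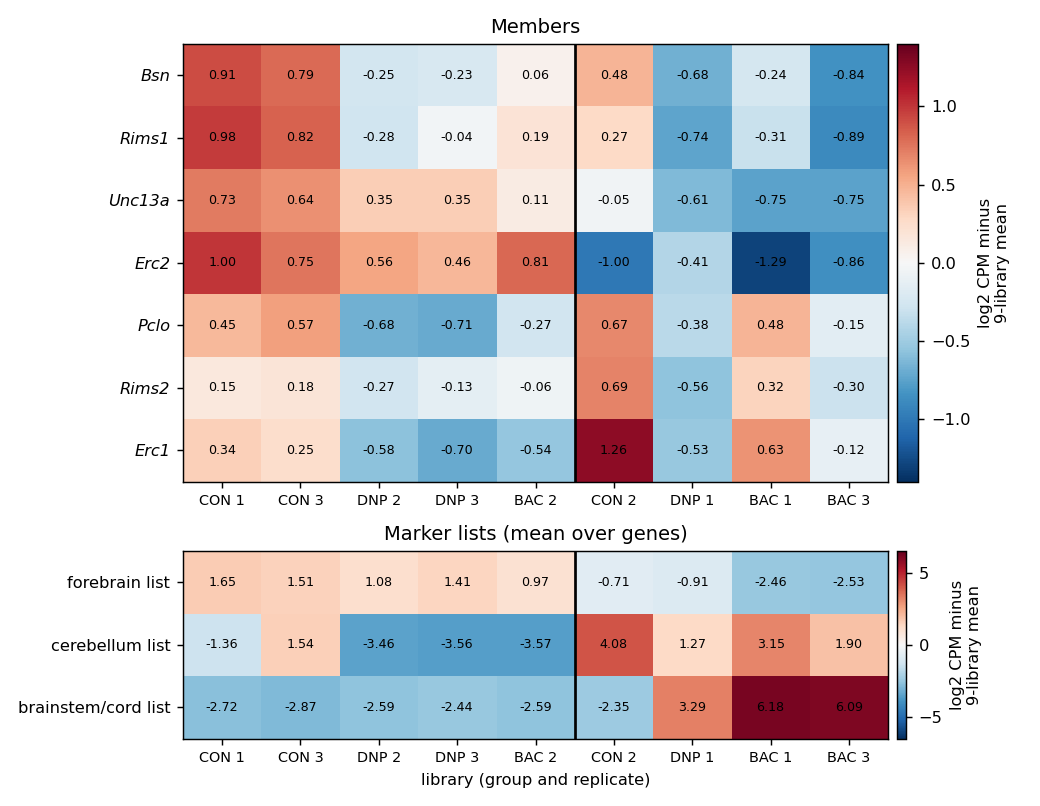
Log2 CPM of each gene (upper panel) and mean log2 CPM of the regional marker lists (lower panel) as differences from the mean over the 9 libraries, by library, with the 5 libraries of high forebrain level to the left of the line. Erc2 is above its mean in those 5 (0.46 to 1.00) and below it in the other 4, whereas Erc1 is highest in CON 2 (1.26).

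Ratios of paralogs, which are unaffected by library scaling, showed the same division. Erc1 over Erc2, per kilobase of exon union, was 0.204, 1.54 and 0.228 in CON 1, 2 and 3, 0.296, 0.147 and 0.144 in DNP and 1.22, 0.127 and 0.539 in BAC. It was thus highest in CON 2, BAC 1 and BAC 3, and lowest in DNP 3, DNP 2 and BAC 2, so that libraries of different groups stood together. Rims1 over Rims2 was 3.30, 1.38 and 2.87 in CON, 1.63, 1.83 and 1.97 in DNP and 1.19, 2.19 and 1.23 in BAC. Pclo over Bsn was 0.220, 0.347 and 0.260 in CON, 0.373, 0.226 and 0.218 in DNP and 0.4996, 0.241 and 0.492 in BAC. The 4 libraries of low forebrain level had the 4 highest ratios of Pclo to Bsn and the 4 lowest of Rims1 to Rims2.

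**Figure D5:**
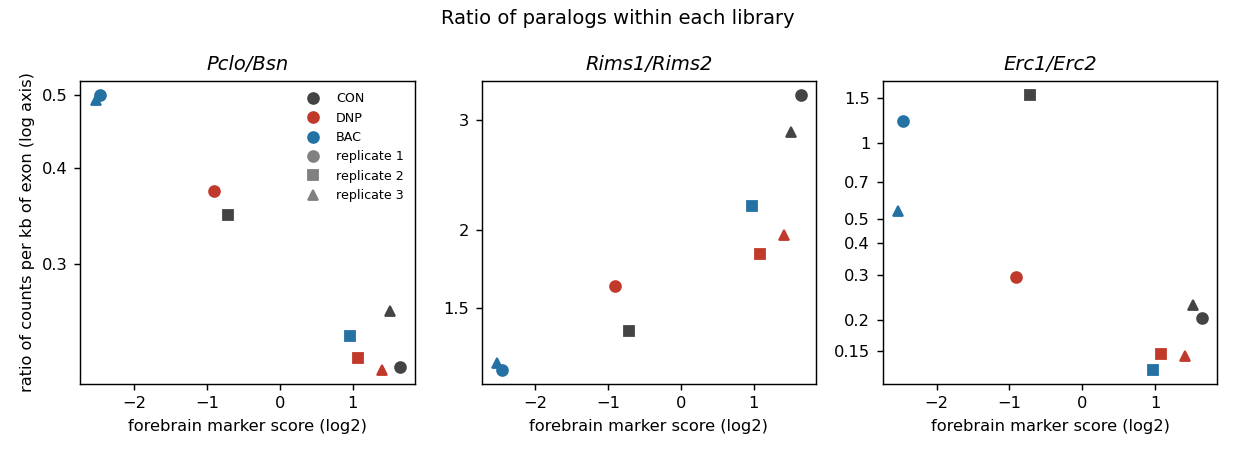
Ratio of paralogs per kilobase of exon union (log axis) in each of the 9 libraries against the mean log2 level of the forebrain list relative to the 9-library mean. The libraries below 0 on the horizontal axis have ratios of Pclo to Bsn of 0.347 to 0.4996, and those above 0 have 0.218 to 0.260.

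The 5 libraries of high forebrain level are a subset chosen after the data were seen. In them the 7 members were lower in both DNP libraries than in both CON libraries. The share of all genes with this pattern was not counted. As the members were chosen with these libraries in view, the pattern is a description and carries no further weight. The ratio of DNP to CON means was 0.434 for Pclo, 0.468 for Bsn, 0.480 for Rims1, 0.523 for Erc1, 0.774 for Erc2, 0.776 for Rims2 and 0.793 for Unc13a (n = 2 and 2). Over all libraries the fitted ratios were 0.452 for Pclo, 0.463 for Bsn and 0.483 for Rims1, close to these, while Erc1 (0.408) and Rims2 (0.627) were lower than in the subset. With 2 CON and 2 DNP libraries the ranges of Unc13a and Erc2 did not meet, which is a description and carries no further weight. The subset was not matched for cerebellum, since Gabra6 had 42 and 735 counts in CON 1 and CON 3 and none in DNP 2 and DNP 3. The 1 BAC library of this subset lay between 0.561 and 0.952 of the CON mean for the 7 members, and at 1.34 of the DNP mean for Pclo and 1.07 for Erc1. With 1 BAC library this last comparison has no replicate check.

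Other cell types also differed between groups beside the members. The 5 astrocyte genes summed to 845 to 1663 CPM in CON, 657 to 897 in DNP and 1011 to 1431 in BAC. All 5 had lower means in DNP than in CON (median log2 fold change -0.50) and higher means in BAC than in DNP (median 0.51). The same directions of the means were found for 5 of the 7 members, the 16 long genes of the side list and the 10 cerebellar genes. Of these 5 members, Bsn and Rims1 differed little between BAC and DNP (log2 fold change 0.08, SE 0.25, and 0.05, SE 0.31). Higher levels in BAC than in DNP were found for 2022 of the 3368 long genes. The share of all genes with both directions was not counted. The 5 oligodendrocyte genes summed to 1402 to 2047 CPM in CON, 2378 to 5940 in DNP and 1947 to 6334 in BAC, with 5 of 5 higher in DNP than in CON. The 4 erythroid genes summed to 172 to 200 CPM in CON, 435 to 636 in DNP and 434 to 678 in BAC, with 4 of 4 higher in both diabetic groups. The 6 pan-neuronal genes overlapped, at 1822 to 2501 CPM in CON and 2299 to 3327 in DNP, with 4 higher and 2 lower. Mitochondrial genes took 4.34% to 5.36% of counts in CON, 6.68% to 7.01% in DNP and 5.94% to 7.23% in BAC. The part of these shifts in the levels of the scaffold genes was not tested.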

How the data were processed

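Sample labels gave the groups. Quality of the paired-end, non-strand-specific poly(A) reads was assessed by the authors with FastQC 0.11.9. They filtered the reads with fastp, removed ribosomal reads (Bowtie2 2.3.4.1 is listed), aligned them to GRCm38 with HISAT2 2.1.0 and quantified genes with StringTie 1.3.3b. They deposited raw counts per gene, not normalized, and FPKM per gene. How reads shared by several genes were counted is not given in the sources used here.

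Counts were analysed in R 4.3.3 with edgeR 4.0.16 (TMM, filterByExpr with a minimum count of 10, quasi-likelihood test over the 9 libraries, Benjamini-Hochberg adjustment, threshold 0.05). The biological coefficient of variation was 36.5%. DESeq2 1.42.0 and limma 3.58.1 (on log2 of FPKM plus 1 or 0.1, and on log2 CPM corrected for length by a loess with a span of 0.5) served as alternatives, and steps were tested on simulated data. The 7 genes and all lists were chosen with earlier results of these data known. Besides the members, the lowest, the highest and the most abundant gene of each list in DNP versus CON and the 5 genes most like the members were to be named, of which 1 is not reported here. Colgalt1, the partners without overlap and Gabra6 and Hoxa5 were named after their values were seen. The study names mice as biological replicates, 1 library each.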

Additional observations from a re-analysis of the deposited data

How the results depend on the processing

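No member passed the adjusted threshold in any of the 3 comparisons under the edgeR and limma alternatives, while DESeq2 called 3 members in DNP versus CON and 1 in BAC versus CON. The cause of this difference between tools was not tested. In data simulated for DNP versus CON, with 200 genes changed by 2 on the log2 scale, DESeq2 recovered 83.5% and made 56 false calls. For edgeR the values were 61% and 5. The largest member difference in DNP versus CON was smaller, at -1.30 for Erc1, and recovery of changes of that size was not tested. How these values bear on the DESeq2 calls of the members was not tested. All 7 log2 fold changes of DNP versus CON kept their sign except that of Erc2, which was 0.18 after the length correction and -0.62 to 0.14 when libraries were left out in turn (0.14 without CON 1 and 0.03 without DNP 1). In BAC versus DNP, the length correction gave -0.059 for Bsn and -0.0096 for Rims1. Leaving out libraries gave -0.14 to 0.29 for Bsn and -0.25 to 0.29 for Rims1, with negative values without DNP 1 (-0.053 and -0.12) and without BAC 2 (-0.14 and -0.25). Erc2 in BAC versus DNP was 0.31 in the 5 libraries of high forebrain level, an alternative chosen after the data were seen, with 1 BAC library that is assumed to vary like the other groups. With the cerebellum and brainstem scores as covariates, Rims2 was -0.10 in DNP versus CON and 0.29 in BAC versus CON. That fit also moved Erc1 to -0.54, Unc13a to -0.82 and Erc2 to -1.27 in DNP versus CON, Erc1 to -0.15 and Erc2 to -1.29 in BAC versus CON, and in BAC versus DNP Bsn to 0.31, Rims1 to 0.35, Unc13a to -0.087, Erc1 to 0.39 and Erc2 to -0.019.

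The excess of long genes over all genes (median log2 difference) was -0.18 for DNP against CON, 0.08 for BAC against DNP and -0.096 for BAC against CON. By construction, the length correction took these to 0.00365, 0.00573 and 0.000541. In DNP versus CON it was -0.11 by limma on log2(FPKM + 1), -0.12 with the covariates and -0.23 with the longest coding transcript as the length, and in BAC versus CON -0.042 with the covariates. Same-numbered libraries of different groups deviated with r of -0.55 to 0.55, and 3 of 9 pairs exceeded 0.1, so the numbers were not taken as a pairing. With the replicate number as a block, 0 members were called in each comparison and Pclo gave -1.17 in DNP versus CON.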
